A study of Mus musculus with 22 samples.

Results

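The Fos family (Fos, Fosb, Fosl1 and Fosl2) and the Jun family (Jun, Junb and Jund) encode the subunits of AP-1, and these 7 genes were examined for E2F3a occupancy in the mouse nucleus accumbens. They were chosen by name, for their known response to cocaine in this region, out of 21887 protein-coding genes on assembled chromosomes. A peak was counted for a gene when it overlapped the gene or lay within 1 kb of it, and a differential site when the authors' annotation named the gene. E2F3a, a transcription factor of the E2F family, was profiled by CUT&RUN, in which an antibody guides a nuclease that releases the DNA around the bound protein. All mice were wild-type C57BL/6J. One group was injected with cocaine at 20 mg/kg for 7 days in the home cage, and the other with saline on the same schedule. The labels list 7 cocaine E2F3a libraries (5 male, 2 female) and 4 saline E2F3a libraries (2 male, 2 female), made from nuclei of bilateral tissue punches. The authors' table of differential sites holds values of 6 cocaine and 4 saline libraries, without their names. The punches hold all cell types of the region, and the labels used here give no ages.

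AP-1 binds DNA as a pair of subunits. Fos proteins pair with Jun proteins, while Jun proteins can also pair among themselves, and the complex recognises short palindromic sites in promoters and enhancers. Fos, Fosb and Junb are immediate early genes that neurons switch on shortly after stimulation. In the nucleus accumbens, a stable truncated product of Fosb, known as ΔFosB, builds up over repeated cocaine exposure. E2F factors are best known for the control of cell cycle and DNA synthesis genes, through sites rich in G and C near transcription starts.

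After cocaine, E2F3a peaks lay at Jun, Fosb, Jund and Fosl2, and none lay at Fos, Fosl1 or Junb. Thus 4 of the 7 genes (57.1%) had a peak in the cocaine list, 2 of the 4 Fos family genes and 2 of the 3 Jun family genes, against 9.79% of all protein-coding genes. None of the 7 had a peak in the saline list, where 1.85% of all protein-coding genes had one. None of the 7 was named at a differential site, whereas 2.86% of all protein-coding genes were at an adjusted p below 0.05 in the authors' deposited table. With 7 genes, a count of 0 is what shares as low as those in the saline list and the site table would most often give, so these counts do not set the AP-1 genes apart from other genes. The lists are also of unequal length, with 3467 cocaine and 725 saline peaks, and each was called once over libraries of both sexes pooled. The peaks at AP-1 genes therefore have no spread between replicates, and their presence in the cocaine list alone is not a test of a change with treatment. Control immunoglobulin G (IgG) libraries were not analysed here on the AP-1 genes, so no IgG background stands beside their peaks.

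**Figure D1:**
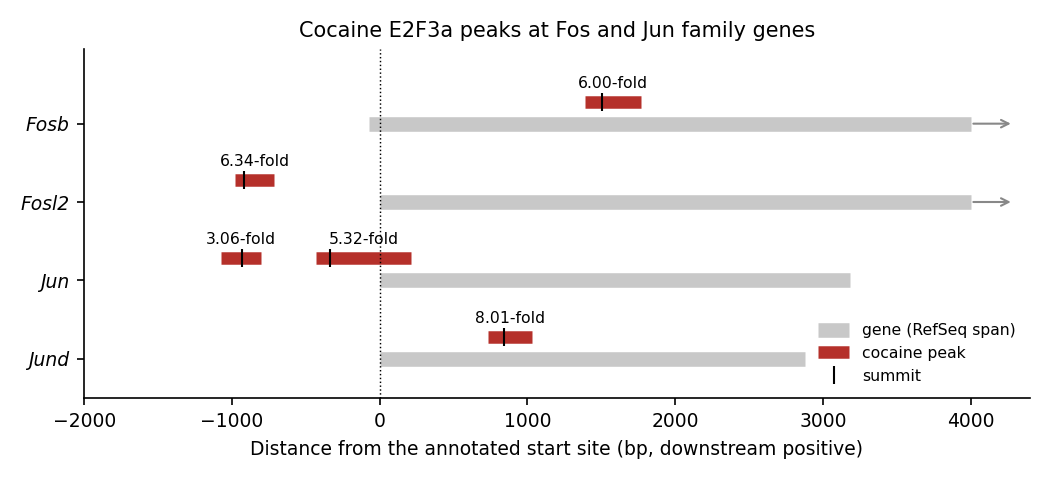
Cocaine E2F3a peaks (red, summit as a black tick) at the 4 AP-1 genes that had one, drawn to scale by distance in bp from the annotated start site of each gene, with the gene span in grey (spans that go on past 4000 bp end in an arrow). The peak of Jun spans the start site, those of Fosb and Jund lie downstream of it, and that of Fosl2 and the weaker peak of Jun lie upstream.

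The 250 bases before the annotated start are given for Jun, whose window lies entirely within a cocaine peak, for Fosl2 and Fosb, whose windows hold letters of an E2F site, and for Fos, the best known immediate early gene of the family, which had no peak. Sequences are from RefSeq (GRCm38.p6) and run 5′ to 3′ on the strand of the gene, and capitals mark the motif matches described next.
Jun: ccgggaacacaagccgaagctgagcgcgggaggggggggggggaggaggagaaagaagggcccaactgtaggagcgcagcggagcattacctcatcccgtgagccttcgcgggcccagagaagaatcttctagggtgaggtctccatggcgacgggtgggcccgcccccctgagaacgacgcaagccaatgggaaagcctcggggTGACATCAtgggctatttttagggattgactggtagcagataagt
Fosl2: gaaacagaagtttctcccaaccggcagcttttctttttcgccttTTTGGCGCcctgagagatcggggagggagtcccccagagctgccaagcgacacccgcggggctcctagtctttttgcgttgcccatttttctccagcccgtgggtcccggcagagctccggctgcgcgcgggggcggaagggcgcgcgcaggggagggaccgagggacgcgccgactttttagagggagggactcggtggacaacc
Fosb: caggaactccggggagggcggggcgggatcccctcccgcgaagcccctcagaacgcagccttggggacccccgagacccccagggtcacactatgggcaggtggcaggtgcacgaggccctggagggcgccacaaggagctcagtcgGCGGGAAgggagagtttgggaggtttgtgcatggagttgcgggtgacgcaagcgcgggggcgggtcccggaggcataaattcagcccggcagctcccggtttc
Fos: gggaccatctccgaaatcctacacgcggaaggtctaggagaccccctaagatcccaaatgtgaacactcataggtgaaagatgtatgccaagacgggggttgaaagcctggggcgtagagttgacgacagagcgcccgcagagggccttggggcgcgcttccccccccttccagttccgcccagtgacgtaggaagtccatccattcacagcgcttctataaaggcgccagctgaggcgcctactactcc

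The E2F motif was searched on both strands as TTTCCCGC, TTTGGCGC, TTTCGCGC and TTTGCCGC, and in a shorter form that drops the first T. Only Fosl2, among the 6 AP-1 genes with a window in the table, held the longer form (TTTGGCGC, 206 to 199 bases upstream of the start), which 2.35% of 21263 windows of protein-coding genes held. The short form, held by about 10% of windows, was found in Fosl2, within the longer match, and in Fosb (GCGGGAA, its reverse complement, 103 to 97 bases upstream). Neither match was under the peak of its gene, which began 716 bp upstream of the start site at Fosl2 and 1387 bp downstream of it at Fosb. The start site used for Fosb lay 73 bp inside its RefSeq gene span. Its window therefore takes in the outer 73 bp of the gene, and the match lies beyond them. Jun, Fos, Junb and Jund held neither form in this window. Among the 899 windows that overlapped a cocaine peak, 7.45% held the longer form and 22.7% the short one. Those windows also had a higher median GC content, 62.0% against 55.6% over all windows. The motif shares were not compared at equal GC content. No AP-1 gene held the AP-1 site itself, TGACTCA on either strand, which 4.06% of windows held. Jun held TGACATCA at 45 to 38 bases upstream, one of the CRE-like motifs TGACGTCA and TGACATCA that 4.74% of all windows and 8.68% of windows in a cocaine peak held. Only these exact letters were searched, so partial forms, such as TGACGT in the Fos window, were not counted. None of the 6 held a CArG box, the binding site of serum response factor, in this window, and bases farther upstream were not searched. The window of Fosl1 was not analysed here.

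The windows of the AP-1 genes were mostly rich in G and C. The GC content was 68.8% in Fosb, 66.4% in Junb, 64.4% in Fosl2, 61.2% in Jun, 58.4% in Fos and 47.6% in Jund, against a median of 55.6% over all windows and 62.0% over windows in a cocaine peak. The window of Jund also stood apart from the others in its count of CpG dinucleotides, 3 against 15 to 23 in the other AP-1 genes. Windows richer in GC were more often in a cocaine peak. The windows were split by GC content into 4 bins of about equal numbers of windows. The share was 0.86%, 3.05%, 6.25% and 6.88%, low to high. Fosb, Junb and Fosl2 fell in the highest bin, Fos and Jun in the next and Jund in the one below it. Fosl2 (64.4%) and Jund (47.6%) lay at the lowest value of their bins. Among the AP-1 windows, only that of Jun overlapped a cocaine peak, as 4.23% of all windows did. The peaks of Fosb, Fosl2 and Jund lay outside their windows, so the bins do not describe these peaks. Of the genes without a peak within 1 kb, Junb lay above the median GC content of windows in a cocaine peak and Fos below it. The part of base composition in the share of AP-1 genes with a peak was not tested.

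In the Jun family, Jun encodes the founding subunit of the complex. Its start site lay inside a cocaine peak (chr4:95052008-95052653, mm10) that reached from 431 bp upstream to 214 bp downstream and had its summit 336 bp upstream. The authors gave this peak a fold enrichment, the ratio of signal to the peak caller's background, of 5.32 and a −log10 q of 8.12. A separate peak (chr4:95053024-95053294) lay 802 bp upstream of Jun, with a fold enrichment of 3.06 and a −log10 q of 3.31. Its fold was among the lowest of the list, with 4.64% of cocaine peaks below it, whereas 61.1% lay below that of the peak at the start site. More than 1 cocaine peak within 1 kb was found at 174 protein-coding genes (0.795%). Both peaks of Jun also overlapped Junos, a long noncoding RNA gene whose span (chr4:95052317-95169036) begins 95 bp from the edge of Jun. The upstream peak lay wholly within Junos and the start site peak in part, so they cannot be assigned to either gene alone.

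Jund, which encodes a subunit whose transcript is present in many tissues without stimulation, carried the strongest of the AP-1 peaks. The peak (chr8:70698474-70698767) lay within the gene, 735 to 1028 bp downstream of the annotated start, with its summit at 842 bp. Its fold enrichment was 8.01 and its −log10 q was 23.9, above 90.6% and 91.2% of the cocaine list. Junb encodes the subunit that, as an immediate early product, often partners with Fos proteins after stimulation. It had no peak within 1 kb, and its nearest cocaine peak (chr8:84990275-84990601, 3.41-fold) lay 11.5 kb away in Hook2, which encodes an adaptor protein of the cytoskeleton.

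In the Fos family, the peak of Fosb (chr7:19308277-19308658) lay within the gene, 1387 to 1768 bp downstream of the annotated start, with its summit at 1506 bp. Its fold enrichment was 6.00 and its −log10 q was 7.93, so 73.2% of cocaine peaks had a lower fold. Fosl2, also known as Fra-2, encodes a subunit without the strong activation domain of Fos. Its peak (chr5:32135496-32135756) lay 716 to 976 bp upstream of the start, with its summit at 918 bp, a fold enrichment of 6.34 and a −log10 q of 12.1. Fos had no cocaine peak near it, and the closest, in the tubulin-modifying enzyme gene Ttll5 (7.95-fold), was 391 kb away. Fosl1, also known as Fra-1, had its nearest cocaine peak 22.2 kb away, at Drap1 and AI837181 (4.88-fold).

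The order of fold enrichment among the AP-1 peaks was Jund, Fosl2, Fosb, the start site peak of Jun and the upstream peak of Jun. In this order, 4 of the 5 lay above the list medians of 4.88-fold and a −log10 q of 6.45, and the upstream peak of Jun lay below both. Whether neighbours in this order differ could not be tested, since a pooled list gives 1 value per peak. None of the 5 overlapped a saline peak, against 15.7% of all cocaine peaks that did, so at this background fewer than 1 of 5 would overlap one. The distances on either side of the 1 kb limit were well apart, with 802 bp for the farthest peak inside it and 11.5 kb, at Junb, for the nearest outside.

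**Figure D2:**
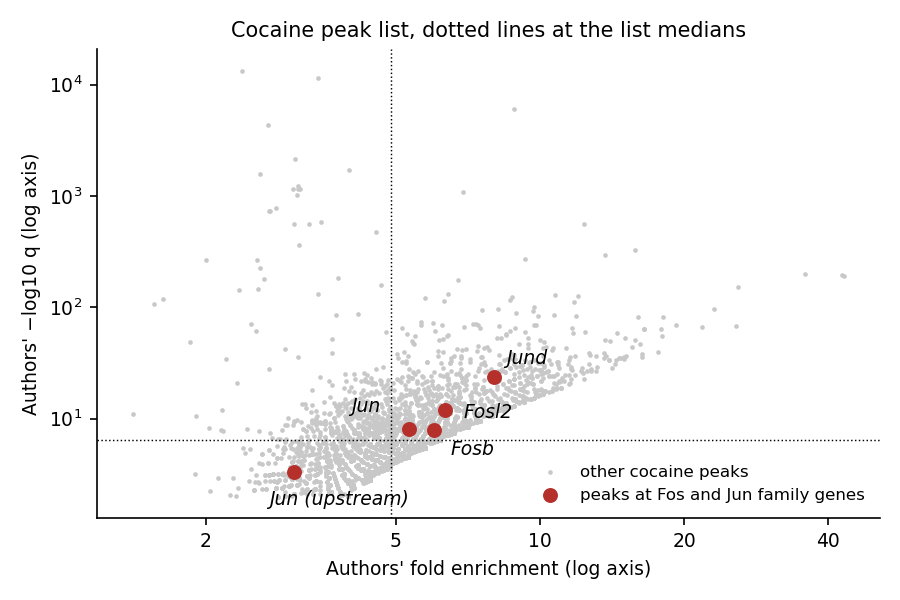
Fold enrichment (x, log axis) against −log10 q (y, log axis), both as the authors gave them, for every cocaine peak (grey) and the 5 peaks at AP-1 genes (red), with dotted lines at the medians of the list. The AP-1 peaks run from 3.06-fold at the upstream peak of Jun to 8.01-fold at Jund, and 4 of the 5 lie above both medians.

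Fewer of the AP-1 peaks remained in a stricter list. When the cocaine list was trimmed by −log10 q to the 725 peaks of the saline list, a choice made after seeing the data, Jund alone of the 7 genes kept a peak, and 2.12% of all protein-coding genes had one. The lowest −log10 q in the trimmed list was 13.0, just above the 12.1 of the Fosl2 peak. With the gene itself required to overlap, Jun, Fosb and Jund remained, 3 of 7 against 8.14% of all protein-coding genes. Among the 12243 protein-coding genes no longer than Fosl2, the longest of the AP-1 genes at 21369 bp, 6.61% had a cocaine peak.

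The surroundings of the AP-1 genes differed in how many cocaine peaks they held. Fosb had 5 cocaine peaks within 100 kb, of which 1 was its own. The others were an intergenic peak 16.7 kb away (6.40-fold) and peaks at Ercc1 (4.24-fold), which encodes a DNA repair nuclease subunit, at Ppp1r13l and Cd3eap (5.95-fold) and at Opa3 (4.79-fold). Jun had 3 within this distance, its own pair and 1 at Mysm1 (6.18-fold), which encodes a histone H2A deubiquitinase. Jund had 2, with a peak of 13.6-fold at the RNA-binding protein gene Lsm4, 24.1 kb away, that exceeded its own. Fosl1 had 2, Fosl2 and Junb 1 each, and Fos none. The median protein-coding gene had 0, and 4.58% had 3 or more.

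No saline peak and no differential site lay close to an AP-1 gene. No saline peak was found within 100 kb of any of them. At that distance 9.73% of protein-coding genes had one, so a count of 0 among 7 is near that background. The nearest saline peak was 158 kb from Jund, close to Ell, and the farthest nearest one was 5390 kb from Jun. For 5 of the 7 genes the nearest saline peak lay farther away than the median of 1100 kb for all protein-coding genes, the exceptions being Jund and Fosl2 (860 kb). Nor did any of the 956 listed sites lie within 100 kb of an AP-1 gene, a distance at which 11.2% of protein-coding genes had one, so a count of 0 among 7 is near this background. The median distance to a called site over all protein-coding genes was 852 kb, and Fosl2 (583 kb) and Jund (670 kb) lay nearer to one than that. The nearest site called by the authors was 583 kb from Fosl2, at the promoter of Pisd, and the one farthest off was 2390 kb from Jun. The nearest sites of all 7 genes were lower in cocaine in the authors' deposited table, with log2 fold changes from -1.48 near Fosl1 to -0.58 near Junb. Over all 947 called sites, 474 were lower and 473 higher. At such distances they belong to other genes, and they are given as the limit of what the table holds for AP-1.

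**Figure D3:**
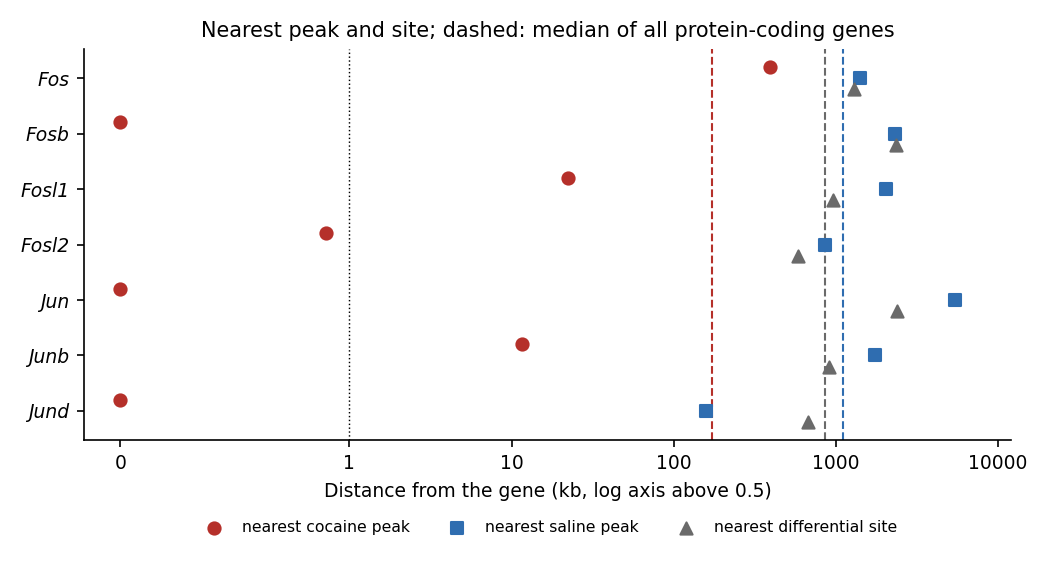
Distance in kb (log axis above 0.5 kb) from each AP-1 gene to the nearest cocaine peak (red circles), saline peak (blue squares) and differential site with an adjusted p below 0.05 (grey triangles), with dashed lines at the medians of all protein-coding genes (171 kb, 1100 kb and 852 kb) and a dotted line at 1 kb. Cocaine peaks lie at or below 0.716 kb from 4 genes, while saline peaks lie at least 158 kb and sites at least 583 kb from all 7.

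The same measures were taken at genes that work with AP-1, for which differences from the AP-1 genes were not tested. Among 28 partners and related basic leucine zipper genes, 4 had a cocaine peak (14.3%), none a saline peak and 1 a differential site (3.57%). Over all protein-coding genes these shares were 9.79%, 1.85% and 2.86%, and differences from them were not tested. The peaks were at Atf2 (7.24-fold), whose product pairs with Jun, Creb3 (6.60-fold), Atf5 (6.41-fold) and Crem (5.20-fold and 5.25-fold). At Creb1, whose product activates Fos through cyclic AMP response elements, an intronic site rose in the authors' deposited table, with a mean normalized count of 21.0 in cocaine and 10.7 in saline (log2 fold change 0.98, adjusted p = 0.0015). Among 28 kinases and factors upstream of AP-1, 5 had a cocaine peak (17.9%), at Rps6ka3 (7.38-fold), Csnk2a1 (6.11-fold), Map2k7 (5.69-fold), Mrtfb (4.42-fold) and Elk3 (4.30-fold), and none a saline peak. Differential sites were named for 2 of the 28 genes (7.14%), Mapk8, which encodes the Jun kinase JNK1, and Rps6ka1. At Mapk8 the site was annotated to the promoter and had a mean of 6.60 in cocaine and 17.2 in saline (log2 fold change -1.39, adjusted p = 0.0019 in the authors' deposited table). The site named for Rps6ka1 was distal intergenic, 46630 bp from the start site of that gene. Its log2 fold change was -0.49 (adjusted p = 0.0038 in the authors' deposited table).

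Among 26 other immediate early genes, 5 had a cocaine peak (19.2%), 2 a saline peak (7.69%) and 1 a differential site (3.85%). Over all protein-coding genes these shares were 9.79%, 1.85% and 2.86%, and differences from them were not tested. Cocaine peaks were at Dusp1 (10.5-fold), Npas4 (8.09-fold), Egr1 (7.65-fold, 85 bp from the gene), Per1 (7.57-fold) and Arc (5.28-fold, 503 bp from the gene). The Dusp1 peak overlapped a saline peak (6.09-fold), as did 15.7% of all cocaine peaks. None of the 5 peaks of the AP-1 genes did, where this share would give fewer than 1. Btg2 had a saline peak alone (3.41-fold). The site named for Nr4a1 was distal intergenic, at -13369 bp from the start site of that gene. It fell in the authors' deposited table, with a mean of 12.8 in cocaine and 26.2 in saline (log2 fold change -1.04, adjusted p = 0.0023).

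**Figure D4:**
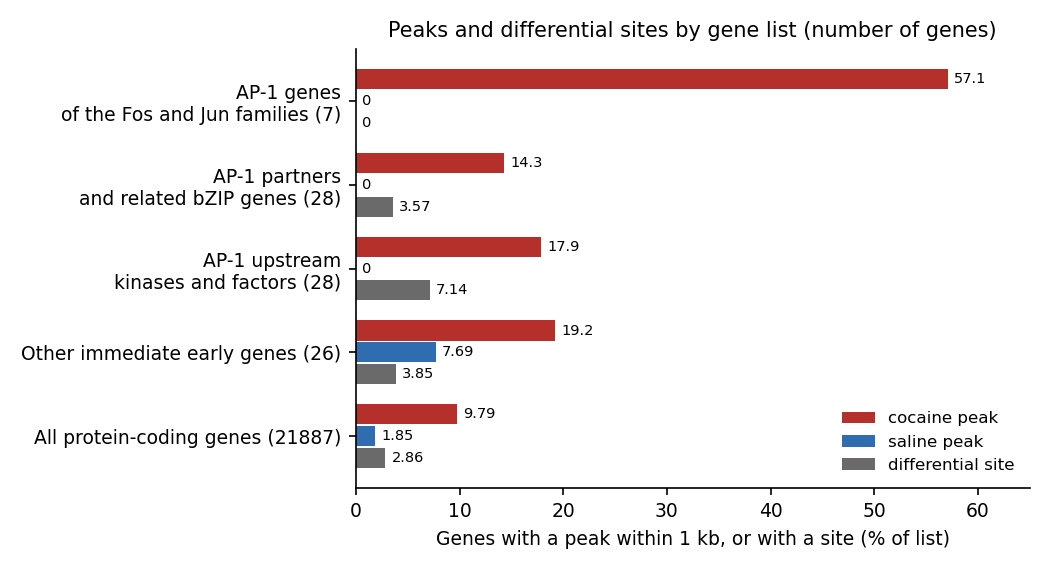
Percentage of genes in each list with a cocaine peak (red), a saline peak (blue) or a differential site (grey), with the number of genes in parentheses and the same shares over all protein-coding genes at the bottom. The AP-1 genes show 57.1% for cocaine peaks and 0 for the other measures, and the related lists show 14.3% to 19.2% for cocaine peaks.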

How the data were processed

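Peaks were called with MACS, per the file headers (peak names), in 1 list per treatment over both sexes. The lists hold, for each peak, a fold enrichment ratio, a p-value and a −log10 q, all deposited by the authors. The narrowPeak score, 10 times the deposited −log10 q, and the summit position come from the same deposited lists, and the score was not used further. Another deposited table holds the authors' diffReps comparison of cocaine with saline, giving a p-value, an adjusted p-value and a log2 fold change for each site, the enrichment ratio, and the mean normalized signal (count) of each group. The labels do not say that libraries came from separate mice, so the authors' p-values may rest on technical spread. The build is mm10, per the submitters' processing notes. Not given in the sources used here are the aligner, the settings of the caller and the use of the IgG libraries (4 cocaine, 5 saline). A further 2 IgG libraries, whose title and treatment label disagree, were left unassigned.

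Gene spans were taken from RefSeq (GRCm38.p6, the assembly of mm10) and compared with peaks in Python 3.11.15 with pandas 2.3.3, with positions counted from 1. The distance functions were tested on simulated data. A peak was shared when it overlapped another by 1 bp. Sequenced reads behind the peaks were not analysed here, so depth is unknown and no interval is given. The table also holds 2 columns of library values joined in a cell, which were not used. Since no AP-1 gene had a site, the exact permutation test planned over libraries, and the search for sites with a similar pattern, had nothing to run on. The genes and lists were chosen with earlier results of these data known. All 7 AP-1 genes are named whatever their values, as are the nearest peak and site of each and up to 12 genes of each related list that had a peak or site. Alternatives were another distance, a −log10 q of at least 3, 50% reciprocal overlap, an adjusted p below 0.01 and all sites within 100 kb.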

Additional observations from a re-analysis of the deposited data

How the results depend on the processing

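The number of AP-1 genes with a cocaine peak was 4, and it was 3 with overlap of the gene required (8.14% of all protein-coding genes), 4 within 5 kb (11.4%) and 4 at a −log10 q of at least 3 (8.76%). Cut to its strongest 725 peaks, as many as saline had, the cocaine list left 1 gene, Jund (2.12% of all protein-coding genes). This alternative was added after seeing the data. The counts of 0 for saline peaks and differential sites stayed at 0 in the wider settings. These were saline peaks within 5 kb, sites within 100 kb and all listed sites. The narrower settings could not raise a count of 0, so they do not bear on it. These were overlap of the gene, a −log10 q of at least 3, 50% reciprocal overlap and an adjusted p below 0.01. For shared peaks only such a narrower setting was run. Leaving out libraries and changing the scale of library values could not be run, since the peak lists are pooled and no AP-1 gene had a site. No paired analysis was possible because the pooled lists and the joined library values carry no replicate numbers. A missing peak does not show missing signal, since the lists hold only what passed a −log10 q of about 2.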
